A study of Homo sapiens with 12 samples.

Results

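The genes described here are 10 feedback genes of MAP kinase signalling: the phosphatase genes DUSP4, DUSP5 and DUSP6, the Sprouty and SPRED genes SPRY2, SPRY4, SPRED1 and SPRED2, PHLDA1, and the ETS factor genes ETV4 and ETV5. They were taken by symbol from the 63241 genes of the deposited count table, which holds a row for each of the 10. Of the 10, 9 passed the filter on low counts, each with counts in every library, and ETV4 was listed at 0 in all 12 libraries. No measured value entered the choice of these genes by name, but they were proposed with earlier results of these data known.

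Growth factor receptors signal through RAS, RAF and MEK to the kinases ERK1 and ERK2. Active ERK raises the transcription of genes whose products then dampen the same pathway at several steps, and the transcript levels of such genes are widely used as a readout of pathway output in tumour cells. Dual-specificity phosphatases remove phosphates from ERK, Sprouty and SPRED proteins act between the receptors and RAF, and ETV4 and ETV5 are transcription factors that carry the signal on to other genes.

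RNA was measured in ONS76 and DAOY, established cell lines from human medulloblastoma, a tumour of the cerebellum. Both are given as wild type, and all 12 cultures were kept in artificial cerebrospinal fluid on 6-well plates. In each line 3 libraries came from plates gyrated by an orbital shaker (100 rpm, 18 h), labelled fluid shear stress (FSS), and 3 from plates left static, all described as biological replicates. Shaken and static plates differ in every effect of the shaker, so shear cannot be told apart from its other effects, and since no label says whether replicates were separate cultures or days, a p-value here reflects library-to-library spread only. The questions are how each line's feedback genes differed under FSS, whether the lines differed in that response, and how the static lines differed.

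Library depth was 38.1 to 49.3 M counts, more than the number of paired-end reads in the labels, and the sources used here do not say if mates were counted singly or together. Levels are given as counts per M counts (CPM) after scaling of library sizes by TMM, and TPM is used where genes are set side by side, since it is per length. Of 14 neural and medulloblastoma markers, 4 reached a mean of 1 TPM in ONS76 (NES, VIM, ZIC2 and MAP2) and 9 in static DAOY. Those of DAOY were the same 4 with PAX6, ZIC1, OTX2, GLI1 and GLI2. SOX2 and NEUROD1 were listed at 0 counts throughout, and a listed 0 need not mean a silent gene. VIM was at 1397 TPM in static and 1271 TPM in FSS ONS76, and at 2568 TPM in static and 2238 TPM in FSS DAOY. Of 9 markers of blood, endothelium and epithelium, 4 reached 1 TPM in each group, and their sum ran from 513 to 519 CPM static and 543 to 578 CPM under FSS in ONS76, and from 388 to 419.6 CPM and 404 to 435 CPM in DAOY. KRT18 made up most of it. PECAM1 was at 5.64 TPM static and 9.82 TPM under FSS in ONS76 and at 3.04 and 6.29 TPM in DAOY. In the same order, CD14 was at 1.08 and 1.51 TPM in ONS76 and at 3.19 and 7.31 TPM in DAOY. CDH5 was at 8.76 and 12.0 TPM in ONS76 and at 0.238 and 0.954 TPM in DAOY. VWF was lower under FSS, at 0.767 and 0.550 TPM in ONS76 and 0.0907 and 0.0476 TPM in DAOY. EPCAM was at 0.0314 and 0.0311 TPM in ONS76 and at 1.54 and 1.39 TPM in DAOY. PTPRC, CD3E and CDH1 were under 0.2 TPM in every group. The part of these genes in the results was not tested. Static ONS76 libraries 1 and 2 stood apart in the cardiac myosin genes MYH6 (34.6 and 13.8 CPM) and MYH7 (21.4 and 7.36 CPM), each at 0.0558 CPM in library 3. The 10 heart muscle markers summed to 57.3 and 22.3 CPM there, nearly all of it these 2 genes, against 0.697 CPM in library 3 and at most 1.90 CPM in the other 9 libraries. ACTN2 was also higher in static ONS76 libraries 1 and 2, at 1.16 and 0.830 CPM against 0.0837 CPM in library 3. It was at 0 in FSS ONS76 and at 0.735 to 1.10 CPM in DAOY. TNNT2, ACTC1 and MYL7 were listed at 0 everywhere, and MYL2 and NPPA were at 0 in static ONS76 libraries 1 and 2. TNNI3 and TNNC1, at most 0.223 CPM in static ONS76, were lower in libraries 1 and 2 than in library 3. The 2 members called in ONS76 are therefore also given without those libraries.

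Short stretches of the promoters show what some of these genes carry near their starts. Promoters of 300 bases (250 before the start and 50 after) were read from RefSeq on GRCh38.p14 for 6 of the 10 members. These were DUSP6, PHLDA1, SPRED1, SPRED2, SPRY2 and SPRY4, with 9 promoters in all. Both strands were searched for the ETS core CCGGAA and for the AP-1 element as TGANTCA, a loose pattern with any base in the middle. The cyclic AMP response element TGACGTCA and the CArG box of serum response factor were also searched for. The ETS core, the sequence that factors such as ETV5 recognise, was in 1 promoter each of PHLDA1 and SPRY2, both of which rose in DAOY. The AP-1 element was in 1 promoter of SPRED2, which was called in neither line under FSS. That promoter (chr2:65366729-65367028) lies inside the gene, away from its 5′ end at 65432637. The SPRED2 promoter at that 5′ end (chr2:65432550-65432849) did not hold the element. Which start was in use was not measured for any member. The windows of DUSP6 and SPRY4, which rose in DAOY as well, held none of these motifs. In the stretches below, written 5′ to 3′ on the strand of the gene, capitals mark the motif.
PHLDA1, chr12:76031848-76031877, minus strand: gaggagaggagtTTCCGGggctcgggtccg
SPRY2, chr13:80341251-80341280, minus strand: tccctgcctcctCCGGAAaggcgagggcgc
SPRED2, chr2:65366766-65366795, minus strand: taaccctcggaTGACTCAtccggtacaatg
The PHLDA1 motif begins 89 bases before the start and reads as the ETS core on the opposite strand. The SPRY2 motif begins 142 bases before its start. The SPRED2 motif begins 6 bases before its start and ends on the start base itself. A second SPRED2 match to the loose pattern, TGAATCA, follows that start. Of all 35116 promoters in the RefSeq table, 17.2% hold the ETS core and 7.71% the loose pattern TGANTCA. The other motifs, which 1.85% (TGACGTCA) and 1.29% (CArG box) of all promoters hold, had no match in these windows. The 9 promoters searched are too few for a share of them to be set against these. The matches are letters in a window and not shown to be bound sites, and their part in the changes under FSS was not tested.

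Under FSS most of the feedback genes rose in DAOY, while in ONS76 DUSP4 and SPRY4 did. In DAOY 6 of the 9 tested members rose (DUSP4, DUSP5, DUSP6, SPRY2, SPRY4 and PHLDA1) and 1 fell (SPRED1), where 39.7% of all 19631 tested genes were called, 19.5% risen and 20.1% fallen (edgeR quasi-likelihood test, Benjamini-Hochberg adjusted p under 0.05). In ONS76 2 of 9 rose and 0 fell, where 28.0% of all tested genes were called, 14.1% risen and 13.9% fallen, so the count in ONS76 was near that background. These shares include genes at low counts, while the 9 tested members lay above 5 CPM in every library. Under a filter of 5 CPM in 3 libraries, 3294 of 11619 genes rose and 3332 fell in DAOY, and 2490 rose and 2599 fell in ONS76. The members risen were again 6 in DAOY and 2 in ONS76, and 0 fell. The median log2 fold change of the 9 members was 0.42 in DAOY and 0.07 in ONS76, beside 0.00 for all tested genes in each line. The FSS and static libraries did not overlap for 7 of 9 members in DAOY, against 49.9% of all tested genes, and for 4 of 9 in ONS76, against 38.7%. These are bulk samples, in which a level cannot be told apart as more cells of a kind or more RNA per cell.

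**Figure D1:**
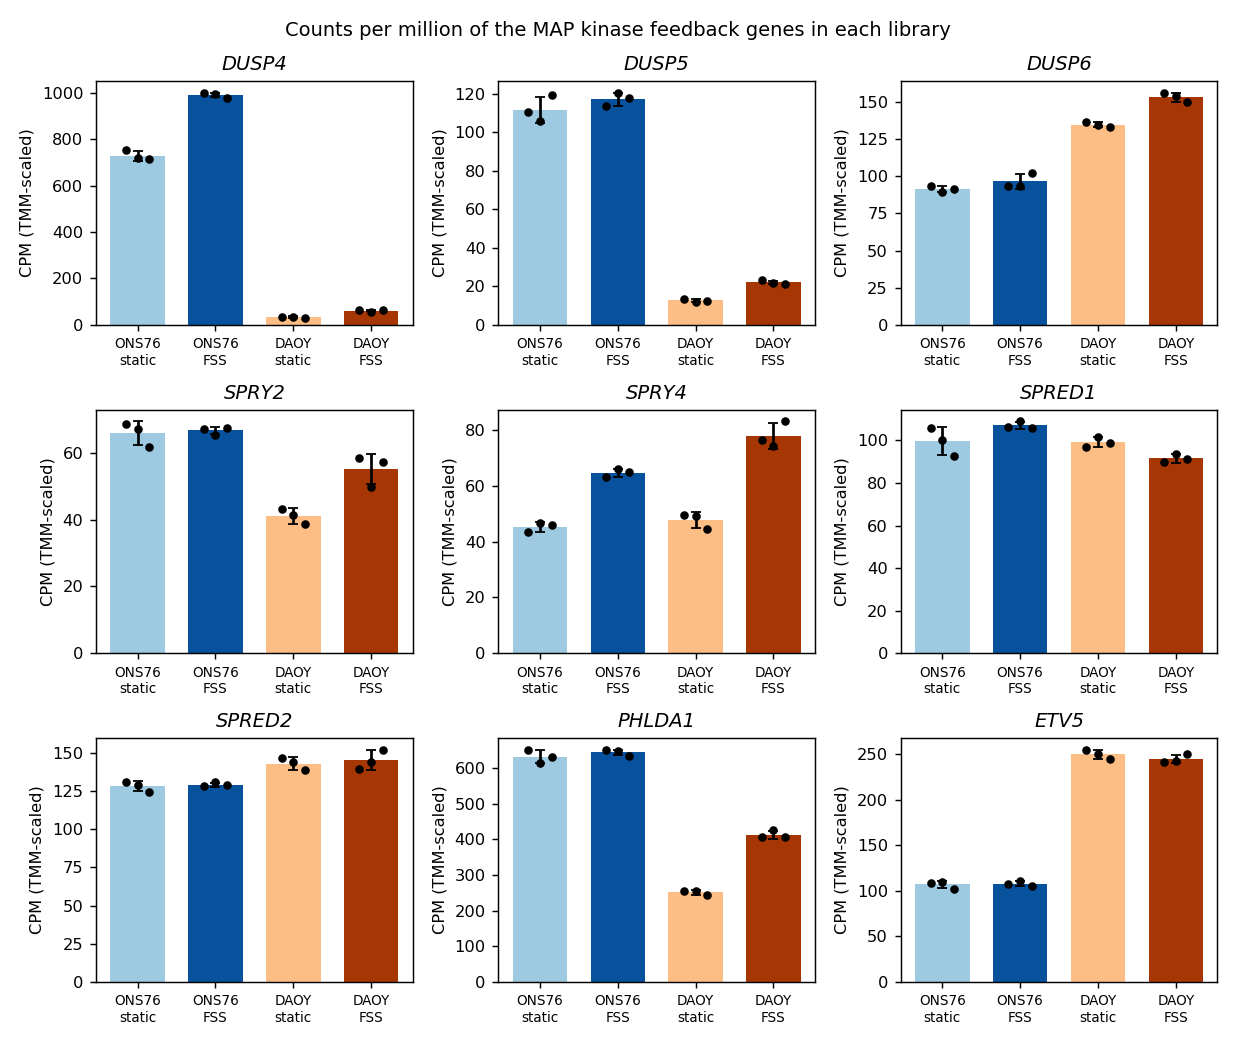
TMM-scaled CPM (vertical axes, each starting at 0) of the 9 detected members in static and FSS libraries of ONS76 (blue) and DAOY (orange); bars are means, error bars SD, points the 3 libraries. DUSP4 and SPRY4 are higher under FSS in both lines, while DUSP5, SPRY2 and PHLDA1 are higher under FSS in DAOY and overlap between conditions in ONS76.

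Among the phosphatases, DUSP4, a nuclear phosphatase of ERK and other MAP kinases (ENSG00000120875, chromosome 8, 29333064 to 29350668 on GRCh38), rose in both lines from very different levels. In ONS76 its FSS libraries were at 997, 996 and 979 CPM and its static libraries at 753, 719 and 716 CPM. In DAOY the FSS libraries were at 63.6, 57.2 and 62.9 CPM and the static ones at 34.2, 35.7 and 30.1 CPM. Every FSS library lay above every static library of its line, and the FSS libraries of DAOY still lay far below the static libraries of ONS76. The log2 fold change was 0.44 (SE 0.043, edgeR adjusted p = 1.20e-09) in ONS76 and 0.88 (SE 0.050, adjusted p = 2.75e-15) in DAOY. Both calls held under all 22 alternative settings, and without static ONS76 libraries 1 and 2 the ONS76 value was 0.47 (SE 0.063, adjusted p = 2.06e-06).

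DUSP5, a nuclear phosphatase specific for ERK (chromosome 10, 110497838 to 110511544), rose in DAOY. Its DAOY libraries were at 23.0, 21.9 and 21.1 CPM under FSS and at 13.4, 12.0 and 12.5 CPM static, so the conditions were clearly separate. In ONS76 it was at 114, 120.3 and 118 CPM under FSS and at 110.3, 106 and 119 CPM static. Those ONS76 values overlap, with 1 static library above 2 of the FSS libraries. The DAOY change was 0.80 (SE 0.061, edgeR adjusted p = 2.58e-12), and in ONS76 the fitted value was 0.07 with an approximate 95% interval from -0.02 to 0.16 (adjusted p = 0.297).

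DUSP6, the cytoplasmic phosphatase of ERK (chromosome 12, 89347232 to 89353271), had the smallest called rise of the members in DAOY. There it was at 156, 154 and 150.1 CPM under FSS and at 137, 134 and 133 CPM static. In ONS76 it was at 93.8, 93.5 and 103 CPM under FSS and at 93.2, 89.5 and 91.6 CPM static. The conditions were separate in both lines, but in ONS76 only by a narrow gap. The change was 0.19 in DAOY (SE 0.040, edgeR adjusted p = 0.000295) and 0.08 in ONS76 (SE 0.041, adjusted p = 0.165, called at 0.0240 in both limma fits of log2 TPM).

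The Sprouty genes encode membrane-bound inhibitors of receptor signalling upstream of RAF. SPRY4 (ENSG00000187678, chromosome 5, 142310427 to 142326455) rose in both lines. Its FSS libraries were at 63.2, 66.0 and 64.8 CPM in ONS76, where the static ones were at 43.4, 46.7 and 45.8 CPM. In DAOY the FSS libraries were at 76.4, 74.0 and 83.1 CPM and the static ones at 49.4, 49.2 and 44.5 CPM. No FSS library overlapped a static one in either line. The log2 fold change was 0.51 (SE 0.052, edgeR adjusted p = 2.41e-09) in ONS76 and 0.71 (SE 0.050, adjusted p = 5.50e-13) in DAOY. Over 22 alternatives the ONS76 value ran from 0.48 to 0.54 and stayed called, and it was 0.50 (SE 0.076, adjusted p = 1.55e-05) without static ONS76 libraries 1 and 2.

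SPRY2 (chromosome 13, 80335976 to 80340951) rose in DAOY. Its DAOY libraries were at 58.4, 49.9 and 57.2 CPM under FSS, with the second the lowest, and at 43.2, 41.3 and 38.7 CPM static. All 3 FSS values exceeded the static ones, at a log2 fold change of 0.42 (SE 0.056, edgeR adjusted p = 1.86e-07). In ONS76 SPRY2 was at 67.1, 65.5 and 67.5 CPM under FSS and at 68.8, 67.1 and 61.9 CPM static. These overlap throughout, and the fitted value was 0.02 with an approximate 95% interval from -0.09 to 0.12.

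SPRED1, which brings the RAS inhibitor neurofibromin to the membrane (chromosome 15, 38252326 to 38357249), was the one member called lower under FSS in DAOY. It was at 89.7, 93.8 and 91.4 CPM under FSS and at 96.9, 102 and 98.9 CPM static in DAOY. There the FSS libraries were the lower ones, with no overlap, and SPRED1 fell by 0.11 on the log2 scale (SE 0.043, edgeR adjusted p = 0.0356). That call sat close to the threshold and was lost in 8 of 22 alternatives, at adjusted p up to 0.119, among them leaving out FSS replicate 1 (0.0869) or 3 (0.0820) or static replicate 2 (0.0976) or 3 (0.0537) of DAOY. The 22 include fits that left out only ONS76 libraries, and the call was lost in none of those. In ONS76 it was at 106, 109 and 106 CPM under FSS and at 106, 100.4 and 92.6 CPM static, where the fitted value was 0.10 (SE 0.044, adjusted p = 0.0719). The ONS76 libraries did not overlap, though the closest pair differed by under 1 CPM, and the difference was called with upper-quartile scaling (0.12, adjusted p = 0.0417), without static ONS76 replicate 1 (0.15, adjusted p = 0.0180) and without replicates 1 and 2 (0.21, adjusted p = 0.0111).

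SPRED2, a close relative of SPRED1 (chromosome 2, 65310851 to 65432637), was called in neither line. It was at 128, 131 and 129 CPM under FSS against 131, 129 and 125 CPM static in ONS76, and at 139, 144 and 152 CPM against 147, 144 and 139 CPM in DAOY. The conditions overlap in both. The approximate 95% interval of the log2 fold change was -0.07 to 0.09 in ONS76 and -0.06 to 0.10 in DAOY.

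PHLDA1, a pleckstrin homology-like domain protein whose transcript follows ERK activity (ENSG00000139289, chromosome 12, 76025447 to 76033932), rose in DAOY and was not called in ONS76. The DAOY libraries were at 406, 425 and 408 CPM under FSS and at 255, 254 and 244 CPM static. Those groups lie far apart beside the spread within each, at a log2 fold change of 0.72 (SE 0.036, edgeR adjusted p = 1.25e-16). In ONS76 it was at 650.3, 648 and 635 CPM under FSS and at 650.5, 615 and 632 CPM static. The highest of those 6 values was a static library, and the interval of the fold change was -0.04 to 0.10.

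The ETS factor genes gave no called change under FSS. ETV5 (chromosome 3, 186046308 to 186110318) was at 241, 242 and 249.8 CPM under FSS and at 255, 250.5 and 244 CPM static in DAOY. In ONS76 it was at 108, 110.4 and 105 CPM under FSS and at 108, 110.1 and 102 CPM static. FSS and static libraries overlap in both lines, with intervals of -0.10 to 0.04 in DAOY and -0.07 to 0.09 in ONS76. ETV4 (chromosome 17, 43527844 to 43579620, minus strand) was listed at 0 in all 12 libraries, so it has no fold change. In GENCODE 29 the whole of ETV4 lies within DHX8, a helicase gene on the opposite strand that had 3064 to 5542 counts per library. A count of 0 in the table need not mean a silent gene, and the part of this overlap in it was not tested.

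**Figure D2:**
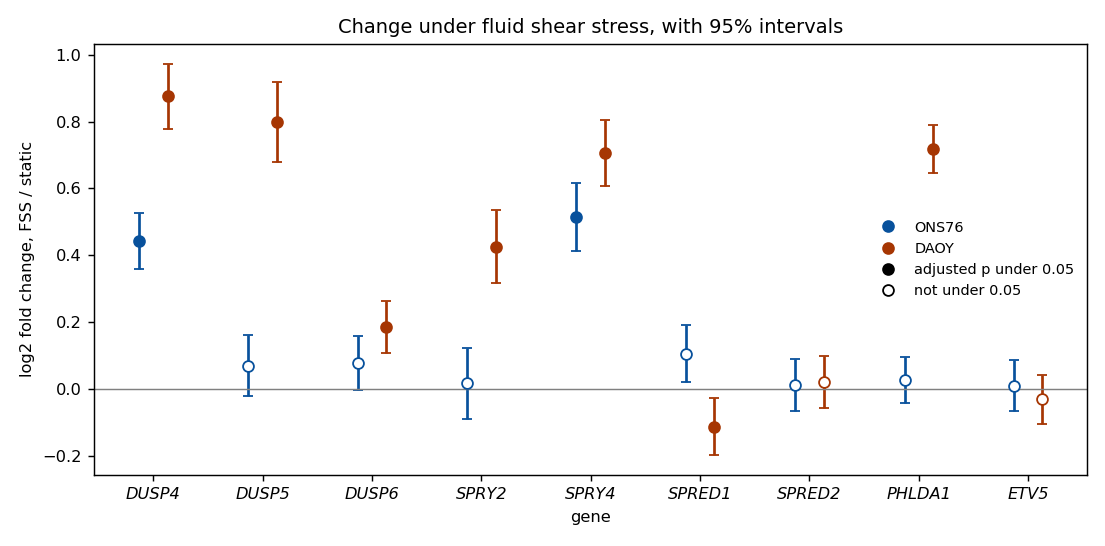
Log2 fold change of FSS over static (vertical axis) for the 9 tested members in ONS76 (blue) and DAOY (orange), with approximate 95% intervals; filled points have an edgeR adjusted p under 0.05. DAOY points lie above ONS76 points for all members shown but SPRED1 and ETV5, though for SPRED2 the points nearly coincide. SPRED1 in DAOY is the one filled point under 0, at -0.11.

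The difference between the lines was tested directly, as the DAOY response minus the ONS76 response in the same fit. It was called for 5 of the 9 members, 4 with a greater and 1 with a lower value in DAOY, where 19.1% of all tested genes were called, 8.34% greater and 10.7% lower. Under the filter of 5 CPM in 3 libraries, 1843 of 11619 genes were greater and 1949 lower in DAOY, with 5 members greater and 1 lower. DUSP5 differed most, by 0.73 (SE 0.077, edgeR adjusted p = 1.88e-08), followed by PHLDA1 at 0.69 (SE 0.051, adjusted p = 8.15e-12). DUSP4, which rose in both lines, still differed by 0.43 (SE 0.066, adjusted p = 9.62e-06), and SPRY2 by 0.41 (SE 0.078, adjusted p = 0.000210). Without static ONS76 libraries 1 and 2 these differences were 0.82, 0.69, 0.41 and 0.32 for DUSP5, PHLDA1, DUSP4 and SPRY2, all still called.

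SPRED1 differed in the other direction, at -0.22 (SE 0.062, edgeR adjusted p = 0.0101). This call held in all 21 alternatives, with the adjusted p reaching 0.0493, and the value was -0.32 without static ONS76 libraries 1 and 2. SPRY4 is the member that rose in both lines without a called difference, at 0.19 (SE 0.072, adjusted p = 0.0609) and an approximate 95% interval of 0.05 to 0.33. It was called in 4 of 21 alternatives, among them without DAOY FSS replicate 2 (0.0365) and without static ONS76 replicate 1 (0.0408). For DUSP6, SPRED2 and ETV5 the intervals of the difference were -0.00 to 0.22, -0.10 to 0.12 and -0.15 to 0.07.

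The static lines differed in 7 of the 9 members, 4 higher and 3 lower in ONS76, where 81.0% of all tested genes were called, 37.9% higher and 43.2% lower. The libraries did not overlap for those 7, against 81.8% of all tested genes, so both shares were near the background. DUSP4 was at 729 ± 20.9 CPM in static ONS76 and 33.3 ± 2.90 CPM in static DAOY (mean and SD, n = 3), 21.9-fold higher at a log2 difference of 4.45 (SE 0.052, edgeR adjusted p = 4.53e-36). DUSP5 was 8.82-fold higher in ONS76, at 112 ± 6.79 CPM against 12.7 ± 0.728 CPM. PHLDA1 was 2.52-fold and SPRY2 1.61-fold higher there.

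In the other direction, ETV5 was 2.34-fold lower in ONS76 (107 ± 4.06 CPM against 249.8 ± 5.20 CPM), DUSP6 1.47-fold lower and SPRED2 1.11-fold lower. The median of all tested genes was -0.10 in this comparison, and it moved by a further -0.22 with upper-quartile scaling and by -0.23 to -0.39 with TPM. The 7 directions held in all 21 alternatives. SPRY4 (-0.08, adjusted p = 0.183) and SPRED1 (0.01, adjusted p = 0.896) were not called, and under the stricter filter, upper-quartile scaling and both TPM fits they were called lower in ONS76, with SPRED1 changing sign. SPRY4 was also called lower there with DESeq2, with RLE scaling and without static DAOY replicate 3 (adjusted p = 0.0211).

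Set side by side per length, the members stood in another order in each line. In static ONS76 DUSP4 led at 344 ± 6.50 TPM, followed by PHLDA1 at 280.0 ± 3.06 TPM and DUSP5 at 118 ± 6.58 TPM (n = 3). SPRED2 came next at 74.4 TPM, then ETV5 at 68.6, DUSP6 at 66.0 and SPRY2 at 63.7 TPM, then SPRED1 at 35.8 and SPRY4 at 22.2 TPM. ETV5, DUSP6 and SPRY2 overlap as neighbours in this order and do not differ beyond their spread, and the remaining neighbours do not overlap. Under FSS DUSP4 stood at 476 TPM and SPRY4 at 32.2 TPM in ONS76, and the order changed there only among those 3 overlapping genes.

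In static DAOY the phosphatase genes DUSP4 and DUSP5, both among the 3 highest in static ONS76, came last of the members above 0, DUSP4 at 21.0 ± 1.79 TPM and DUSP5 at 17.8 ± 0.845 TPM. ETV5 led at 214 ± 2.94 TPM, then PHLDA1 at 148, DUSP6 at 130 and SPRED2 at 111 TPM. SPRY2 at 52.9, SPRED1 at 47.6 and SPRY4 at 31.1 TPM lay between these and the last 2. Under FSS PHLDA1, at 243 ± 9.43 TPM, passed ETV5, at 209 ± 4.67 TPM, and SPRY4, at 50.7 TPM, passed SPRED1, at 43.9 TPM. No neighbours overlap in either DAOY group.

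**Figure D3:**
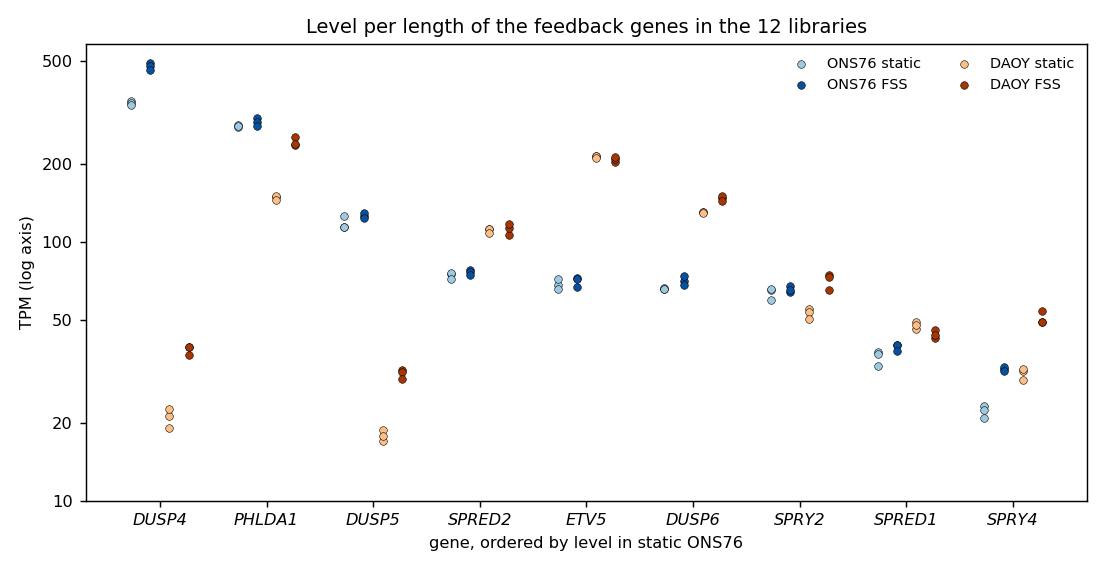
TPM (vertical log axis) of the 9 detected members in each of the 12 libraries, ordered along the horizontal axis by level in static ONS76; colours give line and condition. DUSP4 and DUSP5 are among the highest in ONS76 and the lowest in DAOY, and ETV5 is higher in DAOY.

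Replicates of the members were close together. The coefficient of variation within a group, over the 9 members, had a median of 1.61% in ONS76 under FSS, 3.80% in static ONS76, 4.48% in DAOY under FSS and 2.86% in static DAOY. Over 10645 genes at a mean of 5 CPM or more the group medians were 4.09% to 4.26%. The widest members were DUSP4 in static DAOY at 8.70% and SPRY2 in DAOY under FSS at 8.34%. Antisense genes that overlap members in GENCODE 29 had few counts, with 5 to 27 per library over DUSP6, 12 to 61 over PHLDA1 and 22 to 122 for SPRY4-AS1, while the members themselves had at least 3235, 10345 and 1644. DGKG, which overlaps ETV5 on the same strand, had 43 to 382.

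Profiles over the 12 libraries, as log2 CPM less each gene's mean, were compared with those of 10447 other genes by the root mean square difference. Nearest to DUSP4 were ELF3 at 0.15 and HR at 0.18, and nearest to DUSP5 were TMEM120A at 0.11 and HOMER3 at 0.13. PHLDA1 was nearest to TRIM7 at 0.08 and CSNK1D at 0.11, and SPRY4 to ST6GAL1 at 0.06 and ADI1 at 0.08. DUSP6 was nearest to KANSL2 and BID, both at 0.05, and SPRY2 to RAB7A and ZC3H18, both at 0.07. SPRED1 was nearest to TRA2A at 0.04, SPRED2 to WAC and ENAH, both at 0.04, and ETV5 to CDYL2 at 0.04 and EPB41 at 0.05. Among the members the closest pair was SPRED1 and SPRED2 at 0.16, and DUSP4 and DUSP5, each the other's nearest member, differed by 0.75. The 12 libraries come from 2 lines, so the gap between the lines enters every value.

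Other genes of the pathway were counted from 6 lists of 79 genes, 76 of them tested. In ONS76 19 rose and 12 fell, where 14.1% of all tested genes rose and 13.9% fell. In DAOY 22 rose and 19 fell, where the shares were 19.5% and 20.1%. The numbers fallen were near those shares, which are also the background for each list. Genes at low counts enter these shares, and the lists also hold genes under 5 CPM. Under the filter of 5 CPM in 3 libraries, 3294 of 11619 genes rose and 3332 fell in DAOY, and 2490 rose and 2599 fell in ONS76. Every called kinase of the cascade itself fell. Of 11 RAF, MEK, ERK and RSK genes, 0 rose and 7 fell in DAOY and 0 rose and 3 fell in ONS76, with medians of -0.15 and -0.04 beside 0.00 for all tested genes, of which 20.1% fell in DAOY and 13.9% in ONS76. MAPK3, which encodes ERK1, fell from 25.0 ± 1.71 CPM to 17.2 ± 0.783 CPM in DAOY (log2 fold change -0.54, SE 0.071, n = 3) and from 32.6 ± 1.61 CPM to 26.3 ± 2.39 CPM in ONS76 (-0.31, SE 0.069). RPS6KA2, an RSK kinase downstream of ERK, fell by 0.55 (SE 0.050) in DAOY and by 0.22 (SE 0.051) in ONS76. RPS6KA3, its relative, fell by 0.21 (SE 0.038) in ONS76 and was at -0.08 (edgeR adjusted p = 0.0837) in DAOY, where it was called with DESeq2 (0.0386) and without FSS replicate 2 (0.0429) or static replicate 1 (0.0413).

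Of 12 target genes of ERK other than the members, 8 rose, among them CCND1 and EPHA2, and 0 fell in DAOY (median 0.28), where 19.5% of all tested genes rose. In ONS76 5 rose and 2 fell (median 0.06), against 14.1% risen and 13.9% fallen of all tested genes. EPHA2, an ephrin receptor, rose from 139.6 ± 14.5 CPM to 267 ± 17.4 CPM in DAOY (log2 fold change 0.94, SE 0.051, n = 3). In ONS76 it rose by 0.19 (SE 0.050), a call lost without static ONS76 replicates 1 and 2 (edgeR adjusted p = 0.129). CCND1, the cell cycle regulator cyclin D1, rose by 0.75 (SE 0.056) in DAOY and was at 0.04 (adjusted p = 0.654) in ONS76. EGR1, an immediate early transcription factor, fell in ONS76 from 9.01 ± 0.673 CPM to 4.89 ± 0.365 CPM (-0.89, SE 0.12) and was at -0.04 (adjusted p = 0.746) in DAOY. ETV1, the third member of the family of ETV4 and ETV5, rose by 0.31 (SE 0.047) in ONS76 and was at 0.03 (adjusted p = 0.640) in DAOY.

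Of a list of 16 other feedback inhibitors and related genes, PEBP1, PHLDA2 and PHLDA3 among them, 15 were tested. DUSP1 was listed at 0 in all libraries. Whether each gene of this list acts in feedback on ERK in these cells was not tested. In DAOY 6 rose and 3 fell (median 0.13), where 19.5% of all tested genes rose and 20.1% fell. In ONS76 5 rose and 2 fell, where the shares were 14.1% and 13.9%. The ONS76 median was 0.07, or 0.10 without DUSP2, which was at 0 under FSS there. DUSP10, a phosphatase of the stress kinases JNK and p38, rose in DAOY from 5.23 ± 0.355 CPM to 11.5 ± 0.998 CPM (log2 fold change 1.13, SE 0.10, n = 3) and was at 0.27 in ONS76 (edgeR adjusted p = 0.0515). The ONS76 value was called in 7 of 22 alternatives, among them DESeq2 (0.0471) and the fit without static ONS76 replicate 2 (0.0322). PHLDA2, a relative of PHLDA1, rose by 0.98 (SE 0.068) in DAOY and by 0.33 (SE 0.058) in ONS76, a call lost without static ONS76 replicates 1 and 2 (adjusted p = 0.0610). DUSP16, another phosphatase of JNK and p38, rose by 0.39 (SE 0.050) in ONS76 and was at 0.08 (adjusted p = 0.241) in DAOY. IL17RD, known as SEF and an inhibitor of FGF signalling, rose in ONS76 from 8.00 ± 0.580 CPM to 12.1 ± 0.642 CPM (0.60, SE 0.074) and was at -0.04 (adjusted p = 0.624) in DAOY.

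Upstream, the ligand list moved in both directions. Of 11 tested ligand genes, 5 rose and 2 fell in DAOY (median 0.29), where 19.5% of all tested genes rose and 20.1% fell. In ONS76 1 rose and 3 fell, where the shares were 14.1% and 13.9%. The ONS76 median was 0.02, or -0.06 without AREG, which was at 0 in static ONS76. HBEGF, an EGF family ligand, rose in DAOY by 0.45 (SE 0.086) and was at 0.07 (edgeR adjusted p = 0.466) in ONS76. EREG, epiregulin, rose in DAOY by 0.92 (SE 0.24) from a level of 0.536 ± 0.190 CPM (0.33 with limma on log2(TPM + 1)) and fell in ONS76 by 0.65 (SE 0.12). NRG1, neuregulin 1, rose in DAOY by 0.29 (SE 0.058) and fell in ONS76 by 0.55 (SE 0.057). FGF5, a fibroblast growth factor, fell in DAOY by 0.91 (SE 0.16) and in ONS76 by 0.31 (SE 0.077). In DAOY FGF5 was low, at 2.14 CPM static and 1.14 CPM under FSS. Its value there ran from -0.99 to -0.46 over the 22 alternatives, called in all of them. The ONS76 calls of EREG and FGF5 were lost with limma on log2(TPM + 0.1), at adjusted p = 0.0563 and 0.0821.

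Of 13 receptor tyrosine kinase genes, 4 rose and 0 fell in ONS76 (median 0.17), where 14.1% of all tested genes rose and 13.9% fell. In DAOY 2 rose and 1 fell (median 0.01), which was not above the shares of 19.5% and 20.1% there. EGFR rose in both lines, by 0.17 (SE 0.040) in ONS76 and 0.19 (SE 0.040) in DAOY, with the ONS76 call lost without static ONS76 replicates 1 and 2 (edgeR adjusted p = 0.133). FGFR1 rose by 0.45 (SE 0.048) in ONS76 and was at 0.06 (adjusted p = 0.309) in DAOY. PDGFRB rose in ONS76 from 0.643 ± 0.138 CPM to 1.63 ± 0.538 CPM (1.35, SE 0.23, n = 3) and was at 0.03 in DAOY. At this low level the ONS76 value ran from 0.43, with limma on log2(TPM + 1), to 1.55, without static ONS76 replicates 1 and 2, and was called in all 22 alternatives. ERBB2 fell by 0.29 (SE 0.076) in DAOY, a call lost with limma on log2(TPM + 0.1) (adjusted p = 0.190), and was at -0.05 in ONS76.

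Of 14 adaptors, RAS genes and RAS regulators, 1 rose and 6 fell in DAOY (median -0.07), where 19.5% of all tested genes rose and 20.1% fell. In ONS76 4 rose and 2 fell (median -0.02), where the shares were 14.1% and 13.9%. SOS1, an exchange factor that activates RAS, rose by 0.24 (SE 0.038) in DAOY and 0.25 (SE 0.039) in ONS76. Its relative SOS2 fell by 0.31 (SE 0.043) in DAOY and rose by 0.20 (SE 0.046) in ONS76. NRAS fell in both lines, by 0.16 (SE 0.036) in DAOY and by 0.30 (SE 0.036) in ONS76.

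**Figure D4:**
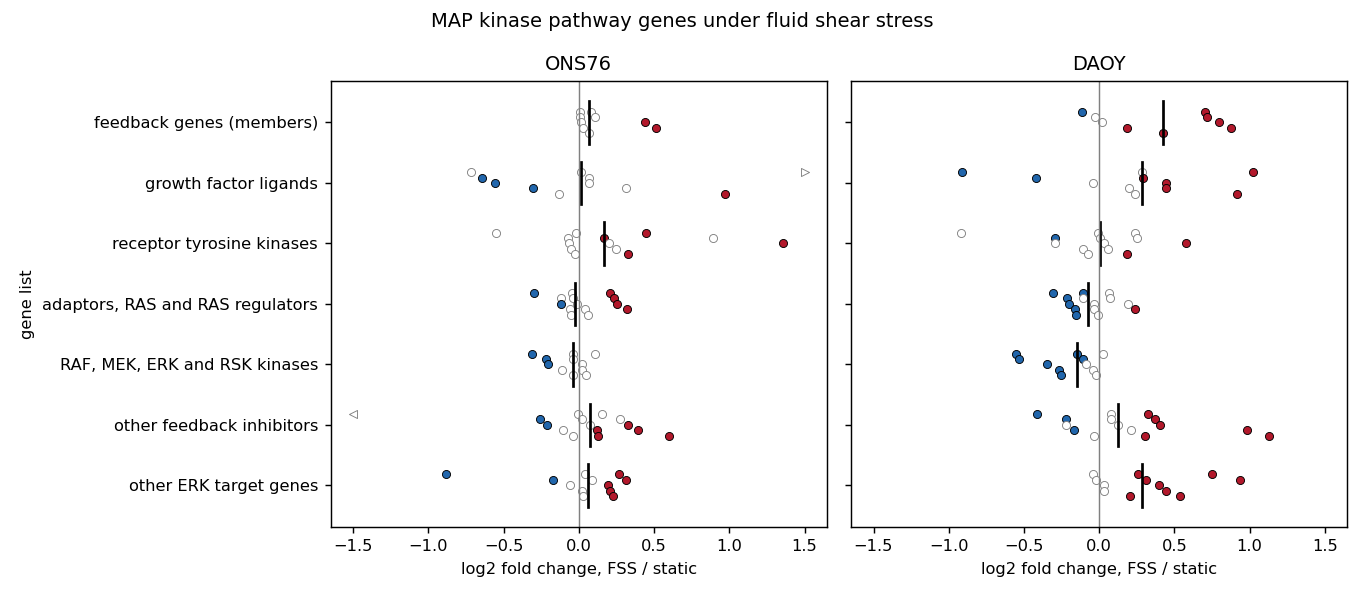
Log2 fold change of FSS over static (horizontal axes) in ONS76 and DAOY for the members and the 6 other lists (vertical axis); each point is a gene, red or blue where it rose or fell with an edgeR adjusted p under 0.05, open otherwise, and vertical bars are list medians. Triangles mark AREG and DUSP2 in ONS76, which lie past the axis limit and have a group at 0 counts. In DAOY the kinase list has 7 blue and 0 red points, and the members 6 red and 1 blue.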

How the data were processed

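For 12 libraries the authors deposited raw counts per gene and TPM values in 2 tables. Per the labels' protocols, libraries were directional and polyA-selected. HISAT2 2.2.1, the build GRCh38 and featureCounts are named in the submitters' processing notes. Which annotation and strand setting the counting used is not given. TPM in the deposited table matched the counts divided by 1 length per gene within 0.1% for 100% of 12288 genes, so it is no separate measurement.

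The deposited counts entered edgeR 4.0.16 (R 4.3.3): filterByExpr (19631 genes, 99.96% of counts), TMM scaling, quasi-likelihood fits with 1 mean per group over all 12 libraries, two-sided, with Benjamini-Hochberg adjustment over all tested genes at 0.05. The common biological coefficient of variation was 4.87%. The test was tried on simulated counts. Members and lists were chosen with earlier results of these data known. All members are named. From each list, the planned rule named up to 4 genes with the smallest p in each line. This was reduced to 2 for length after the values had been seen, and counts and medians still cover every tested gene of a list. List medians without AREG and DUSP2 were also added after the values were seen. For each member the 2 genes nearest in profile are named, except 1 gene that is not reported here. Groups came from sample titles.

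Each result was recomputed with DESeq2 1.42.0, a replicate block, upper-quartile or RLE scaling, no filter, a filter of 5 CPM in 3 libraries, each line alone, limma 3.58.1 on log2 TPM with 1 or 0.1 added, and leaving out each library, or static ONS76 replicates 1 and 2 together. Coordinates are from GENCODE 29 on GRCh38.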

Additional observations from a re-analysis of the deposited data

Results flagged for a closer look

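Responses to FSS that differed between the lines under the edgeR test of the difference itself (DAOY minus ONS76, log2 scale, adjusted p under 0.05) are listed here, with no explanation weighed. Among the members these were DUSP5 at 0.73, PHLDA1 at 0.69, DUSP4 at 0.43, SPRY2 at 0.41 and SPRED1 at -0.22. DUSP5, PHLDA1 and SPRY2 overlapped between conditions in ONS76 and were separate in DAOY, and DUSP4 rose in both lines.

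Among the named genes of the other lists, the response was greater in DAOY for EREG at 1.56, DUSP10 at 0.86, NRG1 at 0.84, EGR1 at 0.84, EPHA2 at 0.75, CCND1 at 0.71, PHLDA2 at 0.65 and HBEGF at 0.38. It was lower in DAOY for PDGFRB at -1.32, IL17RD at -0.64, FGF5 at -0.61, SOS2 at -0.51, FGFR1 at -0.39, RPS6KA2 at -0.34, DUSP16 at -0.31 and ETV1 at -0.28. EREG and NRG1 were called in opposite directions in the lines, risen in DAOY and fallen in ONS76, and so was SOS2 in reverse. EREG in static DAOY and PDGFRB in static ONS76 lay under 1 CPM. Over the 76 tested genes of the 6 lists, 16 differed in the one direction and 17 in the other.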

How the results depend on the processing

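Of 774 alternative values of members, 724 kept their direction and their side of the threshold, and 24 of 36 member results did so in all their alternatives. The alternatives of a response within 1 line include fits without libraries of the other line, which enter that response only through the shared fit. Deviations of same-numbered libraries correlated at 0.01, -0.01 and -0.02 in ONS76 and 0.08, 0.04 and -0.03 in DAOY over 10645 genes. Those of different-numbered libraries ran from -0.053 to 0.060 in ONS76 and from -0.089 to 0.054 in DAOY. With 3 libraries per group, such values do not settle whether replicate numbers mark a pairing. With a replicate block 2 members rose in ONS76, and 6 rose and 1 fell in DAOY, as without it, and 2705 of all genes rose in ONS76. Without static ONS76 replicates 1 and 2, a fit in which the lone static library is taken to vary as the other groups do, 1546 of all tested genes rose in ONS76 in place of 2770. The members fallen in DAOY were 0 in place of 1 with the stricter filter, both TPM fits and upper-quartile scaling, and 0 to 1 when a library was left out. Between static lines, 5 members in place of 3 were lower in ONS76 under those same 4 settings, and with the stricter filter, which tests fewer genes (11619), 5238 of all genes were lower in place of 8475.

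The cause of the changes of sign was not tested. SPRED1 between static lines was -0.054 with DESeq2 and with RLE, -0.12 with the stricter filter, -0.41 and -0.40 with TPM, -0.21 with upper-quartile scaling, -0.039 to 0.055 with a library left out and -0.099 without static ONS76 replicates 1 and 2. That last setting gave -0.024 for DUSP5, -0.027 for CCND1, -0.032 for HBEGF and 0.24 for ERBB2 in ONS76, and -0.031 for the SPRED2 difference of responses, which was -0.019 in both TPM fits. ETV5 in ONS76 was -0.00047 with each line alone. With a library left out, values in ONS76 ran from -0.027 to 0.048 for SPRY2, -0.0094 to 0.028 for SPRED2, -0.021 to 0.030 for ETV5 and -0.29 to 0.081 for ERBB2. In DAOY they ran from -0.014 to 0.041 for SPRED2, -0.19 to 0.030 for EGR1, -0.0058 to 0.053 for ETV1 and -0.033 to 0.14 for PDGFRB, and the SPRED2 difference from -0.025 to 0.031. Depth limits most the named genes near 1 CPM in a group, EREG and FGF5 in DAOY and ERBB2 and PDGFRB in ONS76.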

Other observations

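In static cells the other lists also differed between the lines. Of 15 tested genes in the list of other feedback inhibitors and related genes, 11 were higher and 3 lower in ONS76 than in DAOY (edgeR, median log2 difference 1.33), where 37.9% of all tested genes were called higher and 43.2% lower. IL17RD was an exception, at 8.00 ± 0.580 CPM in ONS76 and 77.9 ± 3.81 CPM in DAOY (n = 3). Of 12 other ERK target genes 8 were higher and 2 lower in ONS76 (median 0.95), with CCND1 at 181 CPM against 83.8 CPM. EGR1 was lower, at 9.01 CPM against 32.8 CPM. Of 13 receptor genes 4 were higher and 6 lower in ONS76 (median -0.06), with ERBB2 at 1.43 ± 0.237 CPM against 35.2 ± 1.18 CPM and PDGFRB at 0.643 ± 0.138 CPM against 18.5 ± 2.46 CPM. Of 11 tested ligand genes 6 were higher and 4 lower, with FGF5 at 36.3 ± 2.58 CPM in ONS76 against 2.14 ± 0.196 CPM in DAOY.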
